A study of Mus musculus with 16 samples.

Results

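Hfe, the hepcidin genes Hamp and Hamp2, and 7 further genes of iron sensing, transport and storage were followed in mouse liver RNA, 10 genes of the 23258 in the table of estimated counts. They were chosen by symbol as genes of iron handling, and Hfe had come to notice because its mean difference between knockout and wild type ranked 5 by p among the genes tested. The knockout values of Hfe are therefore a description of the gene as chosen, and no statement rests on a test of them. All 10 genes passed the filter on low counts, as did 16830 of the 23258 genes in all.

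The study measured liver RNA of C57BL/6 mice, wild type or with a liver-specific deletion of miR-33, a microRNA best known for repressing genes of cholesterol export, on chow or on high-fat diet. Wild type on chow had 3 libraries, knockout on chow 4, wild type on high-fat diet 4 and knockout on high-fat diet 5, and the labels name no further allele or agent. The name of the deposited data gives the driver of the deletion as Alb-Cre, in which the albumin promoter expresses the recombinase in hepatocytes. Liver cells of other lineages, such as endothelial cells and macrophages, should therefore keep miR-33. The labels do not say that libraries came from separate animals, so p-values cover the spread among libraries and nothing wider. They give neither age, sex, duration of feeding nor batch, and the diets fall on separate runs of sample numbers, so diet and any shared handling of those runs cannot be told apart.

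Iron balance is set by hepcidin, a peptide hormone that hepatocytes secrete and that makes cells internalise and degrade ferroportin, the only known iron exporter. Hepatocytes read iron in blood through HFE and transferrin receptor 2, and read iron stores through the ligand BMP6, made by the sinusoidal endothelium, whose receptors signal to the hepcidin gene through SMAD proteins. Inside cells, iron regulatory proteins bind stem-loops in messenger RNAs called iron-responsive elements, blocking translation of ferritin and ferroportin and stabilising the message of transferrin receptor 1 when iron is low.

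Totals ran from 15888436 to 29469645 estimated counts, and the row of a ribosomal RNA took 0.637% to 14.6% of them. Levels are given in CPM, counts scaled to a library total of 1e6 after TMM, a scaling that sets libraries level over most genes. The Y-linked gene Ddx3y had 44.1 to 81.7 CPM and Xist at most 0.707 CPM in every library. Such values are those of males, a sex that the labels do not state. Hepatocyte markers were high in every library, with 16 markers summing to 114826 to 127987 CPM on chow and 82022 to 103764 CPM on high-fat diet. In a bulk tissue, fewer cells of a type and less RNA per cell cannot be told apart. Chow wild type 3 and high-fat knockout 1 stood apart from their groups on principal components, and results that change without them are given both ways.

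On high-fat diet Hamp2 rose and Tfr2 and Hfe fell in both genotypes, and Bmp6 fell in the knockout. In wild type 1 of the 10 genes passed the test as higher and 2 as lower, where 15.2% and 14.2% of all genes did so. In the knockout 1 passed as higher and 3 as lower, beside 17.4% and 16.2% of all genes, so the number of calls was near the background in either genotype. The share of all genes whose libraries separated by diet with no overlap is not given here, so such separation is description only. The median log2 fold change of the 10 genes was 0.12 in wild type and -0.14 in the knockout, against -0.02 and -0.01 over all genes. Calls rest on edgeR's quasi-likelihood test with Benjamini-Hochberg adjustment over the 16830 genes and a threshold of 0.05. With scaling by total counts alone, the median of all genes moved to 0.24 in wild type and 0.32 in the knockout. The share of calls that were higher then went from 51.8% to 87.0% in wild type and from 51.7% to 89.6% in the knockout.

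**Figure D1:**
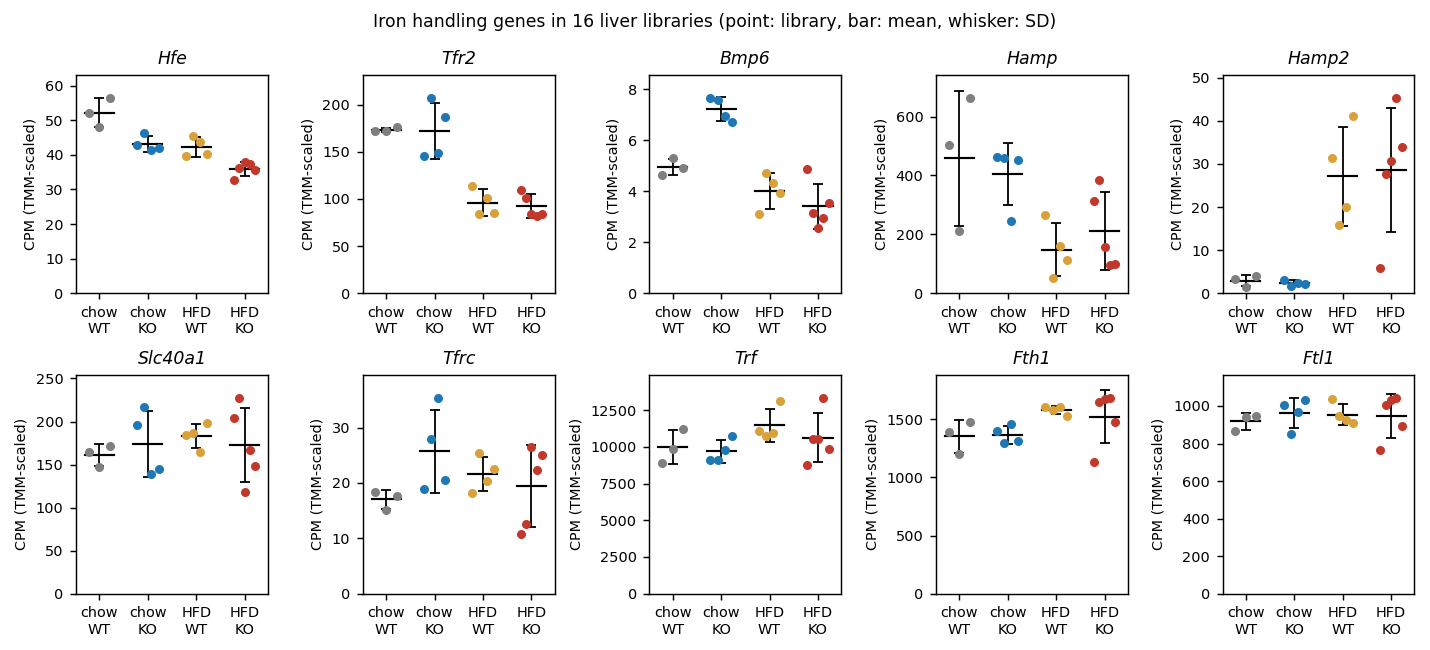
CPM on TMM-scaled totals (vertical axes, linear from 0) of the 10 genes in each library, by group (WT, wild type, KO, miR-33 knockout, HFD, high-fat diet), with points for libraries, bars for means and whiskers for SD. Hamp2 lies between 1.57 and 4.02 CPM in every chow library and between 5.85 and 45.3 CPM on high-fat diet, and Tfr2 on high-fat diet stays at or below 114 CPM while no chow library is below 146 CPM.

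HFE is an MHC class I-like protein that binds transferrin receptor 1 and is lost in the common form of hereditary haemochromatosis, in which hepcidin is too low for the iron load. The gene lies at chr13:23702034-23710855 on the minus strand (mm10). In wild type on chow its 3 libraries had 52.1, 48.0 and 56.4 CPM. In knockout on chow the 4 libraries had 42.9, 46.4, 41.4 and 42.0 CPM. In wild type on high-fat diet the 4 libraries had 39.7, 45.4, 43.8 and 40.1 CPM. Both of these groups lay wholly below wild type on chow, and they overlapped each other. In knockout on high-fat diet the 5 libraries had 32.7, 36.1, 38, 37.4 and 35.6 CPM, all below every library of the other groups.

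The order of the Hfe means was thus wild type on chow (52.2 ± 4.20 CPM, SD, n = 3), knockout on chow (43.2 ± 2.24, n = 4), wild type on high-fat diet (42.2 ± 2.82, n = 4) and knockout on high-fat diet (36 ± 2.06, n = 5). Only the neighbouring pair in the middle of that order overlapped. High-fat diet lowered Hfe by a log2 fold change of -0.30 ± 0.08 (SE) in wild type (edgeR adjusted p = 0.0078) and -0.26 ± 0.07 in the knockout (edgeR adjusted p = 0.0075). In wild type Hfe no longer passed without chow wild type 3 (-0.24, edgeR adjusted p = 0.054) and without both libraries that stood apart (-0.23, edgeR adjusted p = 0.058). It passed in neither genotype when libraries were scaled by total counts alone, with -0.05 (edgeR adjusted p = 0.774) in wild type and 0.06 (edgeR adjusted p = 0.6) in the knockout. Relative to the median of all genes under that scaling, the values were -0.29 and -0.25.

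Hfe was also lower in knockout than in wild type on each diet, by a log2 fold change of -0.27 ± 0.08 on chow and -0.23 ± 0.07 on high-fat diet, with a mean over both diets of -0.25 ± 0.05. The effect differed between diets by 0.04 ± 0.11. The genotypes did not overlap on either diet, with the knockout lower. This was the case for 0.00594% of all genes, or 1 of 16830, which is Hfe itself. These are values of the contrast that brought the gene to notice, so nothing is read from that share. Per kilobase of exon, Hfe stood at 14.6 and 12.1 CPM per kb on chow and 11.8 and 10.1 CPM per kb on high-fat diet (wild type first), well below Tfr2.

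A direct site for the deleted microRNA was looked for in the 10 genes, because a microRNA acts by pairing its seed, bases 2 to 8, with the 3′ untranslated region (UTR) of a message. The mature form from RefSeq (GRCm38.p6, chr15:82198127-82198147, plus strand) is shown with the seed in capitals.
mmu-miR-33-5p: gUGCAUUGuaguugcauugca
The matching 7-base site CAATGCA, searched on the message strand, was in no annotated 3′ UTR of any of the 10 genes, while 1602 of 21028 genes, or 7.6%, held it. The longest Hfe 3′ UTR in GENCODE M21 has 2352 bases. The shorter 6-base match AATGCA occurred in 1 of the 10 genes, Tfrc, at 1 position. A match, or none, describes only these letters in these annotated transcripts.

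Tfr2 (chr5:137569840-137587482) encodes transferrin receptor 2, a hepatocyte receptor that senses iron-loaded transferrin and whose loss also causes haemochromatosis with low hepcidin. In wild type it had 172, 172 and 176 CPM on chow and 114, 84.1, 101 and 85.0 CPM on high-fat diet. In the knockout it had 146, 207, 149 and 187 CPM on chow and 110, 101, 84.0, 81.6 and 83.9 CPM on high-fat diet. Every library on high-fat diet lay below every chow library, and the genotypes overlapped on each diet. The log2 fold change with diet was -0.85 ± 0.13 in wild type (edgeR adjusted p = 1.6e-04) and -0.90 ± 0.12 in the knockout (edgeR adjusted p = 2.0e-05). The smallest of the diet effects with any one library left out was -0.79 in wild type and -0.80 in the knockout. Over the same libraries 12 of 16 hepatocyte markers passed as lower on high-fat diet in wild type and 10 of 16 in the knockout, with medians of -0.60 and -0.55, and their part in the fall of Tfr2 and Hfe was not tested. Per kilobase, wild type Tfr2 stood at 40.0 CPM per kb on chow and 22.2 CPM per kb on high-fat diet.

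Bmp6 (chr13:38345107-38500303) encodes the ligand that liver sinusoidal endothelial cells release in response to iron stores, and it was the lowest of the 10 genes per kilobase, at 0.878 to 1.85 CPM per kb in the group means. Wild type on chow had 4.66, 5.30 and 4.91 CPM and knockout on chow 7.66, 7.58, 6.94 and 6.71 CPM. Wild type on high-fat diet had 3.10, 4.73, 4.34 and 3.93 CPM and knockout on high-fat diet 4.87, 3.16, 2.58, 2.96 and 3.54 CPM. Knockout on chow lay above all other libraries, and the other groups overlapped. With high-fat diet Bmp6 fell in the knockout (log2 fold change -1.09 ± 0.17, edgeR adjusted p = 8.4e-05), while in wild type the value was -0.30 ± 0.19 (edgeR adjusted p = 0.264). The difference between these effects was -0.79 ± 0.26 and did not pass (edgeR adjusted p = 0.664), so the fall was not shown to differ between genotypes. Knockout against wild type gave 0.54 ± 0.19 on chow and -0.24 ± 0.17 on high-fat diet.

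Markers of the sinusoidal endothelium were, like Bmp6, higher in knockout than in wild type on chow and lower on high-fat diet than on chow in the knockout, but in wild type with diet they went up where Bmp6 did not. All 15 were in the table. Their summed level on chow was 256 to 327 CPM for wild type and 346 to 402 CPM for the knockout, and on high-fat diet 313 to 412 CPM for wild type and 270 to 358 CPM for the knockout. With high-fat diet 7 of them passed as higher and 0 as lower in wild type, and 0 as higher and 4 as lower in the knockout. None of the markers was at 0 in any group. Bmp2, another endothelial ligand of the same receptors and one of these markers, fell by 0.58 on the log2 scale in the knockout with diet (edgeR adjusted p = 6.6e-04). In wild type Bmp2 had -0.23 ± 0.13 (edgeR adjusted p = 0.191). The difference between these effects was -0.35 ± 0.17 and did not pass (edgeR adjusted p = 0.753). The part of endothelial RNA in the values of Bmp6 was not tested.

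Hepcidin has 2 genes in the mouse, Hamp at chr7:30942368-30944033 and Hamp2 at chr7:30922372-30924682, both on the minus strand. Hamp makes the hormone that regulates iron, while Hamp2 is a neighbouring copy whose peptide does not have that activity in mice. Their coding sequences were 93.7% identical, with 236 of 252 aligned bases the same. Hamp and Hamp2 shared 3.9% and 3.6% of their 75-base windows exactly, and 20.5% and 19.1% of their 45-base windows. The labels' protocols name both 45 cycles and a 75-base read length. Part of the reads could therefore be counted for either gene, a larger part if reads had 45 bases. Their promoters were compared because the genes share most of this sequence, while Hamp2 rose with diet and Hamp did not. The stretches below are from the RefSeq promoter windows (GRCm38.p6), at chr7:30944090-30944169 for Hamp and chr7:30924239-30924318 for Hamp2, minus strand, with the BMP response element or its counterpart and the site of the factor STAT3 in capitals.
Hamp: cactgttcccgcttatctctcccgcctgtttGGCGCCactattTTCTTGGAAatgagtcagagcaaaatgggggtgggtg
Hamp2: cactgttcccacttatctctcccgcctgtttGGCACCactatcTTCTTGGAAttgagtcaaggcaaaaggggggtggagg
The full windows, 250 bases before to 50 after the start site, were 92.9% identical (276 of 297 aligned bases). The element GGCGCC lay at -109 from the start site in Hamp and was altered in Hamp2 by G4A, counted from the first base of the Hamp element. It was found, searched on both strands, in 11.87% of the 32851 promoters of the table. The STAT motif TTCTTGGAA lay at -97 in Hamp and -94 in Hamp2 and was found in 0.42% of promoters. These are matches of letters, and binding was not measured.

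Hamp varied widely between libraries of a group. Wild type had 503, 211 and 663 CPM on chow and 267, 52.8, 160 and 112 CPM on high-fat diet. The knockout had 462, 459, 247 and 452 CPM on chow and 315, 385, 158, 95.4 and 101 CPM on high-fat diet. Group means on chow and on high-fat diet were 459 ± 229 and 148 ± 90.6 CPM in wild type and 405 ± 105 and 211 ± 131 CPM in the knockout (SD), and the diets overlapped in both genotypes. The log2 fold change with diet was -1.63 ± 0.61 in wild type (edgeR adjusted p = 0.061) and -0.94 ± 0.53 in the knockout (edgeR adjusted p = 0.194), neither passing the test. The wild type value did pass without chow wild type 2 (-1.98, edgeR adjusted p = 0.045) or without high-fat wild type 1 (-2.08, edgeR adjusted p = 0.03), and it passed with DESeq2 (-1.62, adjusted p = 0.021). It was smaller without chow wild type 3 (-1.27, edgeR adjusted p = 0.2), without both libraries that stood apart (-1.26, edgeR adjusted p = 0.207) and without high-fat wild type 2 (-1.35, edgeR adjusted p = 0.129). Knockout against wild type gave -0.18 ± 0.61 on chow and 0.51 ± 0.54 on high-fat diet.

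Hamp2 was higher on high-fat diet, and its libraries separated by diet with no overlap. Wild type had 3.25, 1.57 and 4.02 CPM on chow and 31.5, 15.8, 20.0 and 41.1 CPM on high-fat diet. The knockout had 3.21, 1.72, 2.48 and 2.12 CPM on chow and 5.85, 27.6, 30.6, 45.3 and 33.9 CPM on high-fat diet. The lowest library on high-fat diet, high-fat knockout 1, was still above all chow libraries and was one of the 2 libraries that stood apart. Hamp2 rose by a log2 fold change of 3.19 ± 0.62 in wild type (edgeR adjusted p = 0.002) and 3.61 ± 0.55 in the knockout (edgeR adjusted p = 3.1e-04). Without the 2 libraries that stood apart the values were 3.47 and 3.89. These rises start from a low base, since chow libraries had 27.2 to 69.2 estimated counts of Hamp2 beside 3489 to 11198 of Hamp. Whether reads of Hamp counted for Hamp2 make up part of that base was not tested. Genotypes overlapped on each diet, with -0.33 ± 0.68 on chow and 0.09 ± 0.44 on high-fat diet for knockout against wild type.

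As a share of the counts of both hepcidin genes, Hamp2 made up 0.643%, 0.743% and 0.599% in the wild type chow libraries and 10.6%, 23%, 11.2% and 26.8% in those fed the high-fat diet. In the knockout the shares were 0.687%, 0.378%, 0.994% and 0.469% on chow and 1.82%, 6.70%, 16.2%, 32.2% and 25.1% on high-fat diet. No chow library reached the lowest share on high-fat diet. The means were 0.662% ± 0.0736 and 17.9% ± 8.24 in wild type and 0.632% ± 0.274 and 16.4% ± 12.6 in the knockout (SD). A two-sided exact permutation test of the difference in means gave p = 0.029 in wild type, the smallest its 35 assignments allow, and p = 0.056 in the knockout over 126 assignments. Both were 0.056 after Benjamini-Hochberg adjustment over the 2 tests. Summed as 1 gene, Hamp and Hamp2 together had a log2 fold change with diet of -1.40 ± 0.53 in wild type (edgeR adjusted p = 0.064) and -0.77 ± 0.46 in the knockout (edgeR adjusted p = 0.226), an alternative chosen after seeing the data. Per kilobase of exon, wild type Hamp stood at 1120 CPM per kb on chow and 361 CPM per kb on high-fat diet, and Hamp2 at 5.06 and 46.5 CPM per kb.

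**Figure D2:**
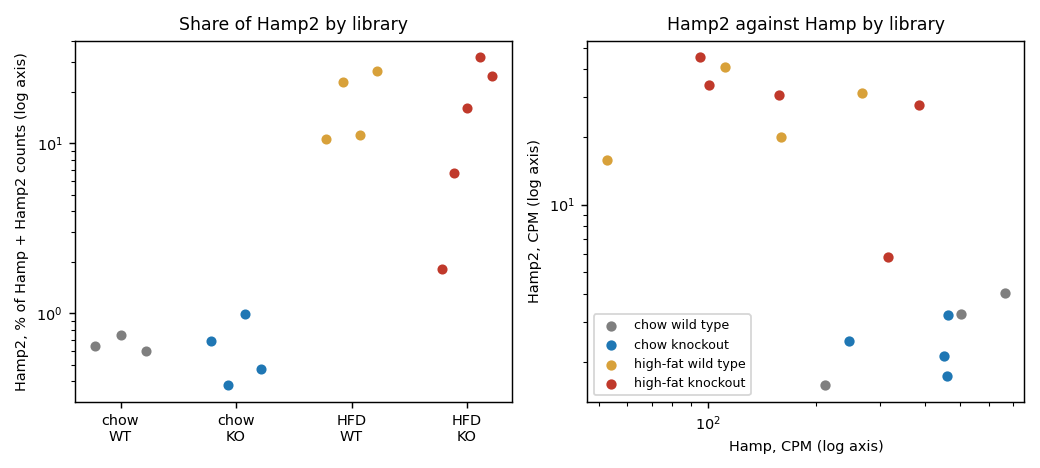
Left, the share of Hamp2 in the counts of Hamp and Hamp2 (percent, log axis) for each library by group; right, Hamp2 against Hamp in CPM (both log axes), 1 point per library. All 7 chow shares are below 1% and the 9 shares on high-fat diet run from 1.82% to 32.2%, while the Hamp levels of the diets overlap.

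Slc40a1 (chr1:45908068-45926524) encodes ferroportin, the exporter that hepcidin removes from the cell surface. On chow it ranged over 147 to 171 CPM for wild type and 139 to 217 CPM for the knockout, and on high-fat diet over 165 to 198 CPM and 118 to 227 CPM. These ranges overlapped, and the diet effects of 0.19 ± 0.19 in wild type (edgeR adjusted p = 0.495) and -0.01 ± 0.17 in the knockout (edgeR adjusted p = 0.965) did not pass. Trf (chr9:103204001-103230445) encodes transferrin, the plasma carrier of iron and a major secreted product of hepatocytes, and was the highest of the 10 genes per kilobase, at 2920 to 3458 CPM per kb in the group means. Its chow libraries ranged over 8895 to 11243 CPM for wild type and 9099 to 10759 CPM for the knockout, and those on high-fat diet over 10748 to 13147 CPM and 8773 to 13310 CPM. The diet effects on Trf were 0.20 ± 0.12 in wild type (edgeR adjusted p = 0.245) and 0.13 ± 0.11 in the knockout (edgeR adjusted p = 0.378). With scaling by total counts alone Trf passed in both, with 0.46 (edgeR adjusted p = 0.017) and 0.45 (edgeR adjusted p = 0.0061), or 0.22 and 0.14 relative to the median of all genes.

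Tfrc (chr16:32608920-32632795) encodes transferrin receptor 1, which takes up iron-loaded transferrin and is the partner of HFE. On chow it ranged over 15.1 to 18.4 CPM for wild type and 19.0 to 35.3 CPM for the knockout, and on high-fat diet over 18.1 to 25.4 CPM and 10.7 to 26.5 CPM. Knockout on chow lay above wild type on chow with no overlap, as was the case for 3.07% of all genes. The log2 fold change was 0.59 ± 0.30 and did not pass (edgeR adjusted p = 0.846). With single libraries left out it was 0.40 to 0.71. On high-fat diet the genotypes overlapped, with -0.15 ± 0.25. The effect of diet was 0.34 ± 0.30 in wild type (edgeR adjusted p = 0.421) and -0.39 ± 0.25 in the knockout (edgeR adjusted p = 0.252), neither passing the test. Markers of erythroid cells, whose precursors carry much of this receptor, summed to 501 to 624 CPM on chow and 516 to 2163 CPM on high-fat diet over 9 of 10 genes in the table, and their part in the Tfrc values was not tested.

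Fth1 (chr19:9982703-9985093) and Ftl1 (chr7:45457944-45459885) encode the heavy and light chains of ferritin, the shell that stores iron. For wild type, Fth1 had 1200 to 1478 CPM on chow and 1527 to 1606 CPM on high-fat diet, ranges that did not overlap. In the knockout it had 1293 to 1457 CPM on chow and 1136 to 1681 CPM on high-fat diet, ranges that did. The diet effects were 0.22 ± 0.11 in wild type (edgeR adjusted p = 0.161) and 0.16 ± 0.10 in the knockout (edgeR adjusted p = 0.237). Without high-fat knockout 1 both passed, at 0.24 (edgeR adjusted p = 0.035) and 0.27 (edgeR adjusted p = 0.011), and without both libraries that stood apart they had 0.30 (edgeR adjusted p = 0.021) and 0.27 (edgeR adjusted p = 0.0083). Ftl1 on chow ranged over 867 to 948 CPM for wild type and 851 to 1033 CPM for the knockout, and on high-fat diet over 907 to 1036 CPM and 768 to 1041 CPM, and its diet effects were 0.06 ± 0.10 (edgeR adjusted p = 0.721) and -0.02 ± 0.09 (edgeR adjusted p = 0.862). With scaling by total counts alone both chains passed in both genotypes, Fth1 at 0.48 and 0.49 (edgeR adjusted p = 0.013 and 0.0031) and Ftl1 at 0.32 and 0.30 (edgeR adjusted p = 0.048 and 0.024). Relative to the median of all genes these were 0.24 and 0.17 for Fth1 and 0.08 and -0.02 for Ftl1. The counts of Ftl1 are uncertain, because the gene model Ftl1-ps1 is 99.6% identical over the coding sequence and shares 66.0% of the 75-base windows of Ftl1. Ftl1 held 32.8% to 34.7% of the counts of both in every library.

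Iron-responsive elements were read from the untranslated regions of these transcripts, because they mark which of the 10 messages the iron regulatory proteins can bind. The stretches are 30 bases each from GENCODE M21 transcripts (mm10), with the bulged C and the CAGTGN loop in capitals, where 5 base pairs were required between the bulge and the loop.
Fth1 5′ UTR, chr19:9982730-9982759: gtttcctgCttcaaCAGTGCttgaacggaa
Ftl1 5′ UTR, chr7:45459780-45459809: gtgtcttgCttcaaCAGTGTttgaacggaa
Slc40a1 5′ UTR, chr1:45925466-45925495: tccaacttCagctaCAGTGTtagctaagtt
Tfrc 3′ UTR, chr16:32631217-32631246: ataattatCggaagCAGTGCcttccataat
Tfrc 3′ UTR, chr16:32631596-32631625: cacattatCgggagCAGTGTcttccataat
Ftl1 and Slc40a1 lie on the minus strand, and Tfrc had 4 such elements in its 3′ UTR, of which 2 are shown. Elements with this stem were found in the 5′ UTR of 31 of 20899 genes, or 0.148%, and in the 3′ UTR of 129 of 21028 genes, or 0.613%. Hamp, Hamp2, Hfe, Trf, Tfr2 and Bmp6 had none with the stem. The 4 genes with an element were Fth1, Ftl1, Slc40a1 and Tfrc, none of which passed the test for diet in either genotype with all 16 libraries under TMM scaling. Fth1 passed in both once high-fat knockout 1 was left out, as given above, so no division of the genes by element is drawn.

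**Figure D3:**
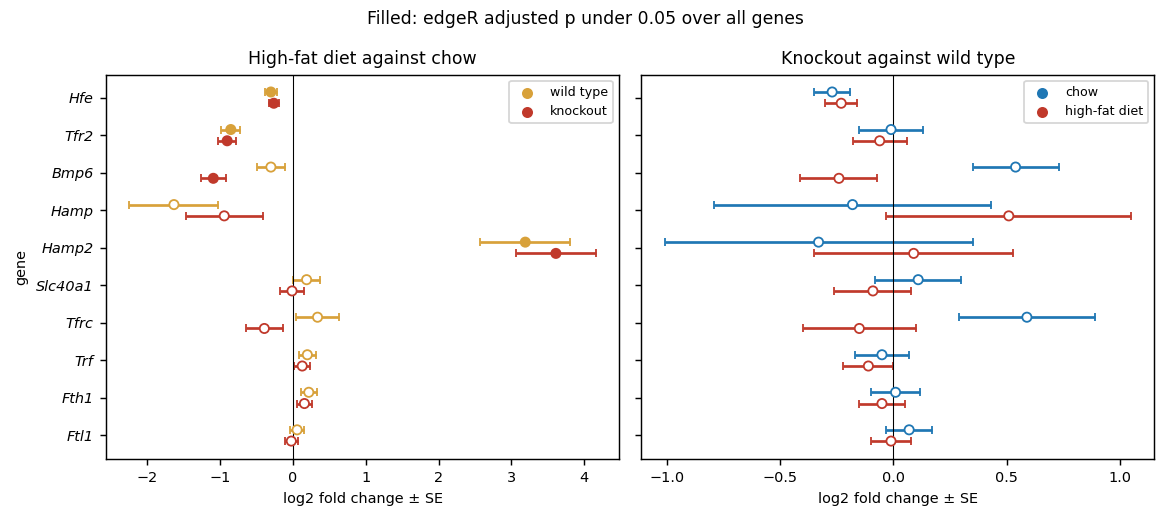
Log2 fold changes (horizontal axes, points, with whiskers for SE) of the 10 genes for diet (high-fat against chow) within each genotype, left, and for knockout against wild type on each diet, right; filled points passed the edgeR test. On the left Hamp2 is at 3.19 and 3.61, Tfr2 at -0.85 and -0.90 and Hfe at -0.30 and -0.26, and on the right no point is filled.

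With Hfe left aside, knockout against wild type moved none of the other 9 genes past the test. No test of Hfe is read here, since its knockout values chose it. None of the other 9 genes passed on high-fat diet, on chow, in the mean of both diets or in the difference between diets. Of all genes, 0.00594%, 0.00594%, 0.0178% and 0% did so. For all genes these shares stand for 1, 1, 3 and 0 genes with edgeR, 8, 2, 5 and 2 with DESeq2, and 2, 0, 1 and 0 with limma voom. At an unadjusted p under 0.05 there were 641, 1001, 586 and 1110 genes. The median of the 10 genes was -0.07 on high-fat diet and -0.00 on chow, against 0.00 over all genes on both. On chow 2 of the 10 genes, Bmp6 and Tfrc, lay wholly above wild type and 1, Hfe, wholly below it, where 3.07% and 2.55% of all genes did so. On high-fat diet 0 lay wholly above and 1, Hfe, wholly below, where 0.594% and 0.642% of all genes did so. Since Hfe was chosen for its lower knockout values, nothing is read from the counts below wild type.

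Other genes of the pathway were followed in lists that hold none of the 10. The share of each list that passed is read against all genes, of which 29.4% passed for diet in wild type (15.2% higher and 14.2% lower) and 33.6% in the knockout (17.4% higher and 16.2% lower). Of 23 tested genes of the BMP and SMAD arm of hepcidin control, 5 rose and 5 fell with high-fat diet in wild type, and 3 rose and 7 fell in the knockout, with medians of -0.19 and -0.17, so that 43.5% passed in each genotype. Smad9, a receptor-activated SMAD whose gene responds to BMP, went from 20.0 ± 3.35 to 5.16 ± 1.36 CPM in wild type (log2 fold change -1.95 ± 0.37, edgeR adjusted p = 0.0014), and had -2.15 ± 0.33 in the knockout (edgeR adjusted p = 1.9e-04). Atoh8, a transcription factor that responds to iron and BMP signals, had -1.10 ± 0.22 (edgeR adjusted p = 0.0013) and -1.21 ± 0.19 (edgeR adjusted p = 1.6e-04). Fgl1, a secreted hepatocyte protein that antagonises BMP6, had -1.59 ± 0.31 (edgeR adjusted p = 0.0016) and -1.60 ± 0.27 (edgeR adjusted p = 5.2e-04). Smad7, the inhibitory SMAD, fell in the knockout by 0.69 on the log2 scale (edgeR adjusted p = 0.039) and had -0.62 in wild type (edgeR adjusted p = 0.108). Other classical BMP targets, named here after their values were seen, did not pass. Id1 had -0.99 in wild type (edgeR adjusted p = 0.056) and -0.81 in the knockout (edgeR adjusted p = 0.065), Id2 -0.39 and -0.03 (edgeR adjusted p = 0.197 and 0.917), Id3 -0.45 and -0.60 (edgeR adjusted p = 0.423 and 0.199) and Smad6 -0.19 in both (edgeR adjusted p = 0.467 and 0.388). The hepatocyte markers, of which 12 and 10 of 16 passed as lower in the same comparisons, moved with the genes that fell, and their part was not tested.

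Ligands, receptors and co-receptors of the list went both ways. Hfe2, the gene of the BMP co-receptor hemojuvelin, rose by a log2 fold change of 0.37 ± 0.13 in wild type (edgeR adjusted p = 0.037) and 0.35 ± 0.11 in the knockout (edgeR adjusted p = 0.023). Bmp5, a ligand, rose by 0.46 ± 0.14 (edgeR adjusted p = 0.022) and 0.41 ± 0.12 (edgeR adjusted p = 0.017). The endothelial receptor gene Eng rose by 0.69 ± 0.12 in wild type (edgeR adjusted p = 3.7e-04) and had 0.01 ± 0.10 in the knockout (edgeR adjusted p = 0.935). Beside it, 7 of 15 endothelial markers passed as higher in wild type and 0 in the knockout, and their part in the value of Eng was not tested. The receptor gene Acvr1 rose by 0.63 ± 0.19 in wild type (edgeR adjusted p = 0.017) and had 0.37 ± 0.16 in the knockout (edgeR adjusted p = 0.087). The ligand gene Bmp4 rose by 0.75 ± 0.25 in the knockout (edgeR adjusted p = 0.029) and had 0.77 ± 0.30 in wild type (edgeR adjusted p = 0.057). Neo1, the partner of hemojuvelin, fell by 0.34 on the log2 scale in wild type and by 0.29 in the knockout (edgeR adjusted p = 0.02 and 0.021). Tmprss6, the protease that cleaves hemojuvelin, fell by 0.31 and by 0.28 (edgeR adjusted p = 0.0062 and 0.004), and was named after its values were seen. The wild type count for this list, 10 genes, was 6 without chow wild type 2, without chow wild type 3 or without both libraries that stood apart.

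In the cytokine arm, through which interleukin 6 and STAT3 raise hepcidin in inflammation, 1 of 12 tested genes rose and 2 fell in each genotype. Osmr, a receptor subunit for oncostatin M, rose by 1.32 ± 0.20 in wild type (edgeR adjusted p = 9.6e-05) and 0.63 ± 0.17 in the knockout (edgeR adjusted p = 0.0077). Il6ra, the interleukin 6 receptor, had -0.76 ± 0.24 (edgeR adjusted p = 0.028) and -0.94 ± 0.21 (edgeR adjusted p = 0.0036). Creb3l3, a liver transcription factor that can induce hepcidin, had -0.73 ± 0.07 (edgeR adjusted p = 1.8e-06) and -0.58 ± 0.06 (edgeR adjusted p = 3.4e-06). The medians of the list were -0.03 and -0.17, and the 25% that passed in each genotype was below the share over all genes. Its 3 calls were 5 in wild type without chow wild type 1, and 5 in the knockout without both libraries that stood apart.

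Among 13 tested genes of iron uptake and reduction, 2 rose and 1 fell in each genotype, with medians of 0.06 and -0.12, and the 23.1% that passed was below the share over all genes. The metalloreductase Steap4 went from 138 ± 33.8 to 363 ± 25.1 CPM in wild type (log2 fold change 1.39 ± 0.18, edgeR adjusted p = 3.8e-05), and rose by 1.45 ± 0.16 in the knockout (edgeR adjusted p = 5.3e-06). The other gene that rose, Meltf, for a transferrin-related membrane protein, was named after its values were seen, since its means were at most 0.784 CPM. The ferritin receptor gene Timd2 fell by 0.30 on the log2 scale in wild type (edgeR adjusted p = 0.039) and had -0.12 in the knockout (edgeR adjusted p = 0.325). Slc39a14, an importer of iron not bound to transferrin, fell by 0.30 in the knockout (edgeR adjusted p = 0.043) and had -0.30 in wild type (edgeR adjusted p = 0.088).

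Of 7 tested genes for export, iron chaperones and ferritin turnover, 4 rose and 1 fell in wild type and 2 rose and 1 fell in the knockout, with medians of 0.46 and 0.39. These are 71.4% and 42.9% of the list, against 29.4% and 33.6% of all genes. Cp, for the ferroxidase ceruloplasmin that works beside ferroportin, rose by 0.46 ± 0.10 (edgeR adjusted p = 0.0029) and 0.39 ± 0.09 (edgeR adjusted p = 0.003). App rose in both genotypes, by 0.84 ± 0.16 (edgeR adjusted p = 9.7e-04) and 0.47 ± 0.14 (edgeR adjusted p = 0.016). Pcbp2, an iron chaperone, fell by 0.26 on the log2 scale in both (edgeR adjusted p = 0.03 and 0.012). Slc11a1, a macrophage metal transporter, rose in wild type by 1.79 ± 0.28 (edgeR adjusted p = 1.4e-04) and had 0.49 ± 0.22 in the knockout (edgeR adjusted p = 0.101). The ferroxidase gene Heph rose in wild type by 1.09 ± 0.30 (edgeR adjusted p = 0.0096) and had 0.43 ± 0.26 in the knockout (edgeR adjusted p = 0.215). Markers of Kupffer cells and macrophages moved with Slc11a1, with 11 of 16 passing as higher in wild type and a summed level of 203 to 391 CPM on chow and 478 to 860 CPM on high-fat diet, and their part was not tested. The 3 calls in the knockout were 1 without chow knockout 1.

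Among 14 tested genes of haem scavenging, transport and breakdown, 1 rose and 3 fell in wild type and 4 rose and 7 fell in the knockout, with medians of -0.19 and -0.20. In wild type the 28.6% that passed was near the 29.4% over all genes, and in the knockout it was 78.6%, against 33.6%. Hmox1, for the inducible haem oxygenase that frees iron from haem, rose by 1.64 ± 0.16 in wild type (edgeR adjusted p = 1.3e-06) and 0.84 ± 0.13 in the knockout (edgeR adjusted p = 1.1e-04). Lrp1, a receptor for haem bound to hemopexin, had -0.66 ± 0.14 (edgeR adjusted p = 0.0016) and -0.59 ± 0.12 (edgeR adjusted p = 0.0011). Cd163, the macrophage receptor for haemoglobin bound to haptoglobin, fell in the knockout by 2.01 on the log2 scale (edgeR adjusted p = 0.0023) and is itself one of the macrophage markers, and there the haem exporter gene Flvcr1 rose by 1.05 ± 0.23 (edgeR adjusted p = 0.002). In wild type they had -0.68 (edgeR adjusted p = 0.311) and 0.46 (edgeR adjusted p = 0.198). In the knockout 7 of the 16 Kupffer cell and macrophage markers passed as higher and 1, Cd163, as lower. The 11 calls in the knockout were 7 without chow knockout 1.

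Of 9 tested genes in the list of iron regulatory proteins, their regulators and linked messages, 1 rose in wild type, 2 rose in the knockout and 0 fell. The medians were 0.02 and 0.05, and the 11.1% and 22.2% that passed were below the shares over all genes. Fbxl5, the iron-sensing adaptor that marks an iron regulatory protein for destruction, rose by 0.75 ± 0.14 in wild type (edgeR adjusted p = 7.2e-04) and 0.39 ± 0.12 in the knockout (edgeR adjusted p = 0.02). Hif1a rose by 0.40 ± 0.11 in the knockout (edgeR adjusted p = 0.007) and had 0.30 ± 0.12 in wild type (edgeR adjusted p = 0.072). The knockout count was 1 without chow knockout 1, chow knockout 4, high-fat knockout 3 or high-fat knockout 5, and the wild type count was 2 without chow wild type 2. Of 20 tested genes of mitochondrial iron and haem synthesis, 1 rose and 6 fell in wild type and 2 rose and 4 fell in the knockout, with medians of -0.22 and -0.08, and the 7 of 20 and 6 of 20 that passed were near the shares over all genes. Cpox, an enzyme of haem synthesis, had -0.90 ± 0.10 (edgeR adjusted p = 7.8e-06) and -0.89 ± 0.09 (edgeR adjusted p = 1.8e-06). Slc25a37, the mitochondrial iron importer mitoferrin 1, rose by 0.62 ± 0.14 (edgeR adjusted p = 0.0032) and 0.59 ± 0.13 (edgeR adjusted p = 0.0015). Alas1, the first enzyme of haem synthesis in liver, fell in the knockout by 1.09 on the log2 scale (edgeR adjusted p = 0.0062) and had -0.68 in wild type (edgeR adjusted p = 0.105). The wild type count of 7 was 4 without chow wild type 3, or without both libraries that stood apart.

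**Figure D4:**
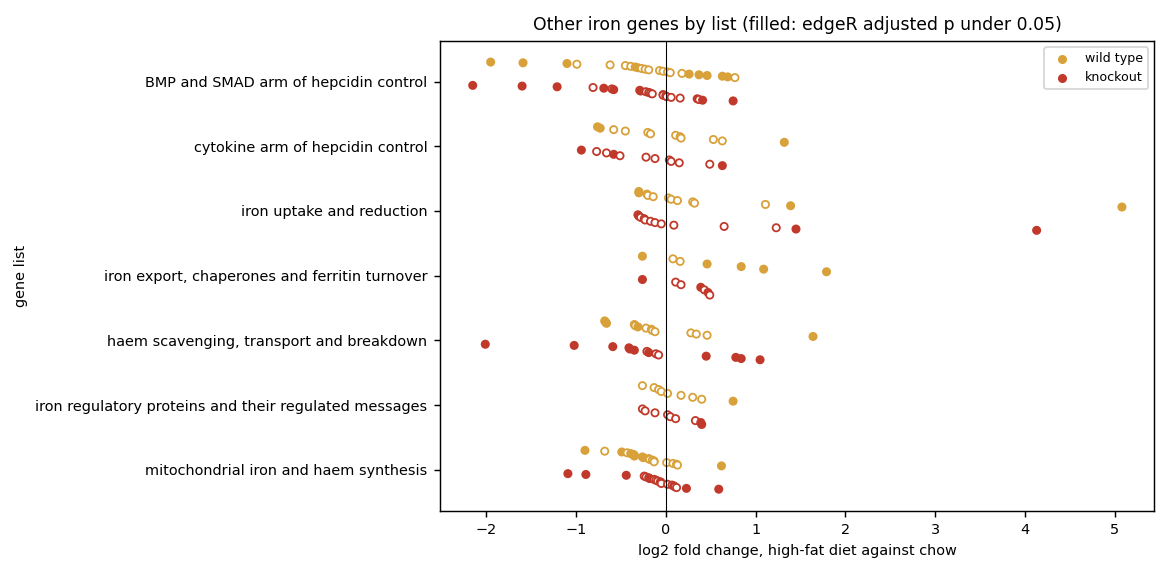
Log2 fold change with high-fat diet against chow (horizontal axis) of each tested gene in 7 lists of other iron genes (vertical axis), 1 point per gene in wild type and in knockout; filled points passed the edgeR test. In the BMP and SMAD list the points farthest left are Smad9, Fgl1 and Atoh8 in both genotypes, and the points above 4 in the uptake list are Meltf.

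In the knockout comparisons no gene of these lists passed the test. The smallest p belonged to Eng on high-fat diet (-0.36 ± 0.10, edgeR adjusted p = 1), to Slc11a1 on chow (1.19 ± 0.28, edgeR adjusted p = 0.763) and in the mean of both diets (0.54 ± 0.18, edgeR adjusted p = 1), and to Eng in the difference between diets (-0.67 ± 0.16, edgeR adjusted p = 0.416). The 15 endothelial markers had medians of -0.37 on high-fat diet, with 3 above 0, and -0.76 in the difference between diets, with 0 above 0. The 16 Kupffer cell and macrophage markers had medians of 0.61 on chow and 0.16 in the mean of both diets, all above 0. None of these markers passed in those comparisons, and their part in the values of Eng and Slc11a1 was not tested.

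Likeness to Hfe, Hamp and Bmp6 was ranked over 11596 genes by Pearson r of each library's deviation from its group mean, over the 16 libraries, which share depth and scaling. The highest values for Hfe were those of Tmem144 (0.863), Stmn1 (0.863), Inpp5b (0.860), Tmem98 (0.841) and Pcyt1a (0.828). For Hamp they were Foxo4 (0.941), Rufy3 (0.938), Txndc15 (0.920), Il1rap (0.909) and Slc35e3 (0.908). For Bmp6 they were Cd47 (0.886), Masp1 (0.853), Adgra2 (0.847), Gse1 (0.843) and Fzd5 (0.821). These are the top of a ranking and were given no test.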

How the data were processed

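Liver RNA was depleted of ribosomal RNA, and reads were aligned with TopHat2 and quantified with Cuffdiff, per the labels' protocols. Per the submitters' processing notes the genome was mm10. The labels' protocols name neither tool versions nor a strand setting. The deposited values are estimated counts per gene, and the labels' protocols do not say how the authors derived them. The members and the gene lists were chosen with earlier results of these data known.

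Estimated counts were rounded, and genes were kept by filterByExpr of edgeR 4.0.16 and scaled by TMM. The quasi-likelihood fit with robust estimation took all 16 libraries with a mean for each of 4 groups (12 residual degrees of freedom), and was tested on simulated data. SE is the size of the log2 fold change over the root of F. Replicate numbers follow accession order. From each list, up to 4 genes that rose and 4 that fell most were eligible for naming, at 1 CPM or more in the higher group, and for each knockout comparison the gene with the smallest p. Likeness took the 5 highest of named gene models. Alternatives were DESeq2 1.42.0, voom of limma 3.58.1, other scalings and filters, and leaving out each library.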

Additional observations from a re-analysis of the deposited data

Results flagged for a closer look

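Among 30 sets of 4 or 5 libraries tested for 1 library far from the rest, 1 in 20 would be expected by chance, and 2 were found. Hamp in chow knockout 3 was 247 CPM, while the other 3 libraries of that group had 452 to 462 CPM. Trf in high-fat wild type 4 was 13147 CPM, with the nearest other library at 11084 CPM and the farthest at 10748 CPM.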

How the results depend on the processing

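With scaling by total counts only, 5 of the 10 genes (Hamp2, Tfr2, Fth1, Ftl1 and Trf) passed for diet in wild type instead of 3. In the knockout 6 passed (the same genes and Bmp6) instead of 4. There Hfe had 0.06, Ftl1 0.30 (edgeR adjusted p = 0.024) and Slc40a1 0.31 (edgeR adjusted p = 0.133), all of the opposite sign to the values under TMM. That scaling moved the median of all genes. Between genotypes on high-fat diet it gave 2 genes higher and 1 lower over all genes, instead of 1 and 0. In the mean knockout effect DESeq2 called 1 of the 10 genes, Hfe, where edgeR called 0; the cause was not tested, and since this contrast chose Hfe, nothing is read from that call. Hfe had log2 values of -0.28 to -0.22 in that mean with single libraries left out. For diet in wild type 248 of 259 values of single genes kept their side of the threshold, and 253 of 259 did so in the knockout. In the 4 knockout comparisons the exception was the DESeq2 call of Hfe. Values that did not pass could change sign. With single libraries left out, Slc40a1 for diet in the knockout ran from -0.13 to 0.11. Hamp for knockout against wild type on chow ran from -0.53 to 0.18. No paired analysis was possible because the labels give no replicate numbers and the numbers used follow accession order. Groups of 3 to 5 libraries limit small differences, above all for Hamp with its wide spread, and Bmp6 rests on 74 to 176 counts per library. Near-identical copies limit Ftl1 and the low chow level of Hamp2.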
